A study of Mus musculus with 12 samples.

Results

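Collagens are the main structural proteins of the extracellular matrix, and each is built from chains wound around each other into a helix, so that a collagen's composition depends on which chain genes a cell transcribes. Fibrillar chains form the banded fibrils of connective tissue and cartilage, type IV chains form the sheet-like network of basement membranes, fibril-associated chains decorate the surface of fibrils, and transmembrane chains stay anchored in the cell surface. In the developing nervous system collagens lie mostly in the basement membrane around the neural tube and in the meninges and mesenchyme next to it, while neural cells themselves transcribe a smaller set. The chain genes were taken as all probe sets whose only gene symbol in the platform annotation has the form of a collagen chain name, Col followed by a type number, the letter a and a chain number. This gave 82 of the table's 45101 probe sets and 42 of its 18193 genes with a symbol of their own. The 42 genes were 11 fibrillar chains, 6 type IV chains, 2 multiplexins, 9 fibril-associated chains, 6 chains of beaded filaments and anchoring fibrils, 3 short-chain network chains, 4 transmembrane chains and Col26a1, which belongs to none of these classes. RefSeq's gene table (GRCm38.p6) holds 44 such symbols, of which Col28a1 and Col6a6 were not analysed here.

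The data are 12 single-channel Affymetrix mouse arrays of mouse embryonic stem cells differentiated toward neural progenitors as a monolayer in N2B27 medium, 2 arrays in each of 6 groups. The rtTA line carries the doxycycline-dependent transactivator and served as the parental control; the rtTA-Dmrt5 line additionally carries the tetracycline-inducible Dmrt5 gene, whose current symbol is Dmrta2 and which encodes a doublesex-family transcription factor. Doxycycline (Dox) was added from day 5 of differentiation or left out, and cells were harvested at day 7 (both lines, -Dox and +Dox) or day 9 (rtTA-Dmrt5 only, -Dox and +Dox), so all 6 groups share the transactivator and +Dox cells had 2 or 4 days of the drug. The labels do not say whether the 2 replicates of a group came from separate cultures, so the p-values measure only the spread between these arrays, which may be technical. The deposited log2 values are centred on each probe set's median over the 12 arrays. They show differences between arrays and no level, and a value below 0 lies below that gene's own median without being low expression in itself.

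The targeted gene went against the labels. Dmrta2 stood at 1.91 and 1.85 in rtTA-Dmrt5 cells without Dox at day 7 and at -0.14 and -0.95 on the arrays labelled +Dox, a log2 difference of -2.42 ± 0.33 (SE; limma, adjusted p = 0.00199), and at day 9 the difference was -2.61 ± 0.33 (adjusted p = 0.000496). This reading rests on 1 probe set, and where in the gene it lies, and whether it reads the transgene's transcript, was not known. Every direction below is therefore the direction between the arrays labelled +Dox and -Dox. The added hybridisation controls, whose 14 probe sets read no mouse RNA, averaged -1.01 and -0.84 on the day 9 +Dox arrays and between -0.41 and 0.23 on the other 10, while the 27 probe sets of the RNA controls added before labelling averaged between -0.05 and 0.07 on all 12.

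Although levels were removed by the centring, the spacing of the deposited numbers still shows, where it can be read, the range of a probe set's median log2 intensity. By this reading 7 collagen genes had a median of at least 8, and they were Col2a1, Col3a1, Col4a1, Col4a2, Col11a2, Col18a1 and Col22a1. Another 23 lay between 4 and 8, 11 between 2 and 4, and 1 (Col24a1) was below 2 or not readable. The shares of all genes in these 4 classes were 33.0%, 39.8%, 24.6% and 2.6%. The 11 are Col4a3, Col4a4, Col6a3, Col6a4, Col6a5, Col5a3, Col8a2, Col10a1, Col14a1, Col17a1 and Col19a1, and their array signal was among the weakest. Replicates of a group differed by a median of 0.13 to 0.19 log2 units over the 42 genes, and the widest gap was 1.38, for Col9a1 in rtTA cells without Dox.

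Across the 6 groups the widest swing was that of Col3a1, the chain of type III collagen in reticular fibrils, whose group means spanned 3.31 log2 units. Col5a2 followed with 2.40, Col4a1 with 2.15, Col25a1 with 2.11, Col9a1 with 2.06 and Col18a1 with 1.79. The group with the highest mean was rtTA-Dmrt5 day 9 +Dox for 14 of the 42 genes, and the group with the lowest mean was rtTA day 7 -Dox for 12. The rtTA-Dmrt5 day 7 +Dox group, by contrast, was lowest for 10 genes and highest for 7.

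**Figure D1:**
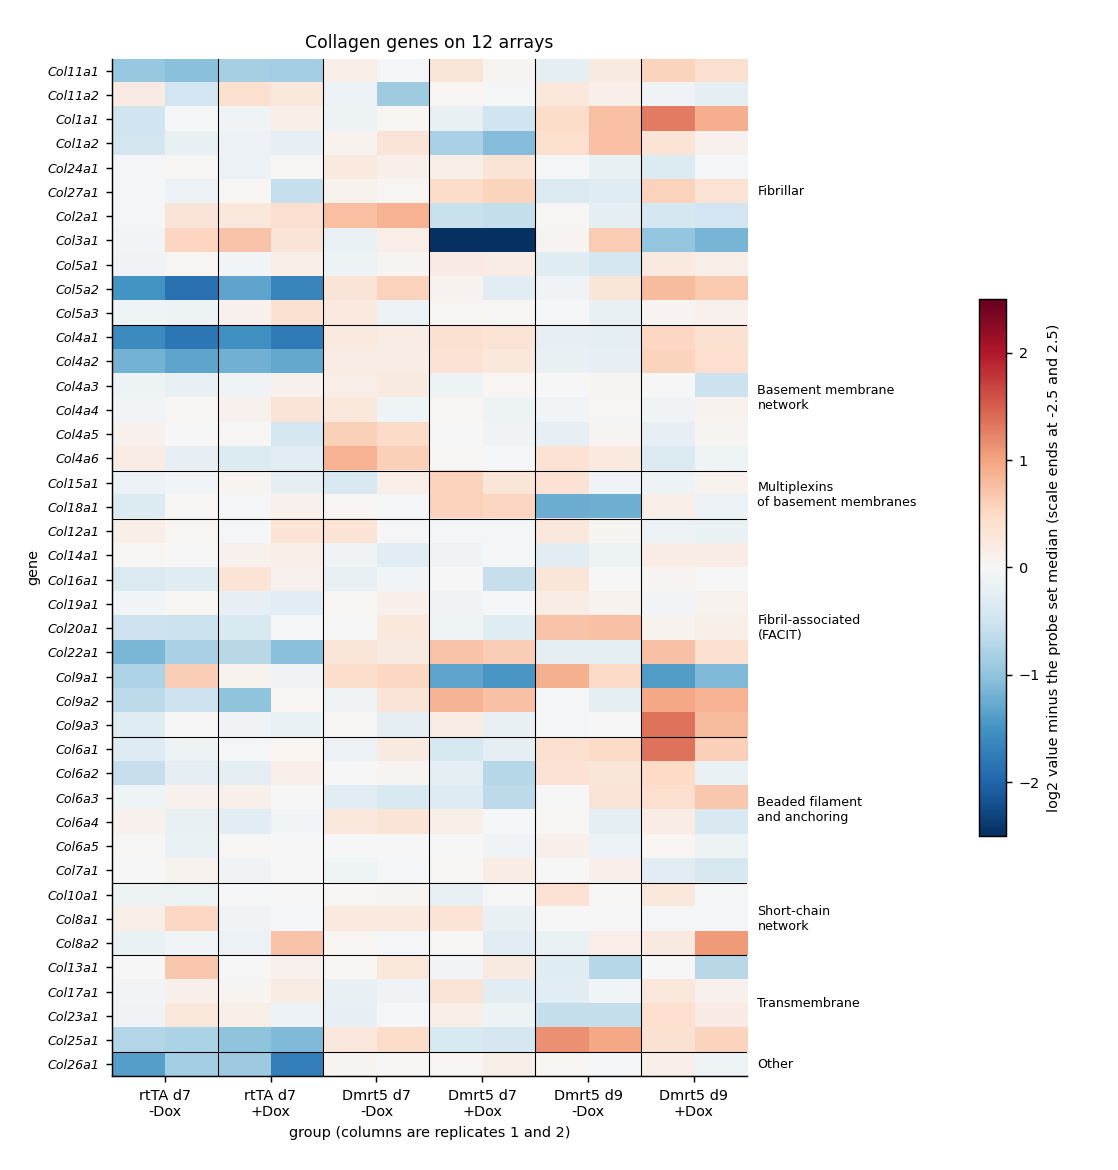
Centred log2 values of the 42 collagen genes (rows, grouped by class) on the 12 arrays (columns, 2 replicates in each of 6 groups; Dmrt5 stands for the rtTA-Dmrt5 line). Col3a1 is at -2.74 and -2.83 on the day 7 +Dox arrays of rtTA-Dmrt5, beyond the ends of the colour scale, and Col4a1, Col4a2 and Col5a2 are low on all 4 rtTA arrays.

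At day 7, after 2 days of Dox, collagen genes that passed the test in rtTA-Dmrt5 cells were mostly lower on the +Dox arrays, and 3 of them were the fibrillar chains Col3a1, Col2a1 and Col1a2. Of the 42 genes, 6 fell, or 14.3%, where 3.84% of all 18193 genes fell, and 1 rose, or 2.38%, where 3.08% of all genes rose (limma, adjusted p 0.05; 6.93% of all genes in either direction). The other 35 members had differences between -0.57 and 0.67. The median difference was -0.12 over the collagen genes and 0.01 over all genes. In bulk RNA of this kind, fewer cells of a type and less of the transcript per cell cannot be told apart. On the same arrays 5 of 6 neuron markers, 3 of 6 neural progenitor markers and 2 of 7 neural crest markers fell. Rises were called for 1 neural progenitor marker, 3 of 7 surface epithelium markers and 2 of 5 embryonic stem cell markers. The part of these shifts in the collagen results was not tested.

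Col3a1 stood at -0.16 and 0.17 on the rtTA-Dmrt5 day 7 -Dox arrays and at -2.74 and -2.83 on the +Dox arrays. Both +Dox arrays lay far below every other array of the series, and the difference was -2.79 ± 0.24, or 6.93-fold lower (adjusted p = 0.000136). The second, dimmer Col3a1 probe set gave -2.35 (adjusted p = 0.00111). Type III collagen is a homotrimer of this chain, and no partner chain is needed for it.

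Col2a1, the chain of cartilage collagen, which neuroepithelium also transcribes early in development, stood at 0.75 and 0.87 without Dox and at -0.55 and -0.60 with it. The -Dox arrays were the highest of all 12 and the +Dox arrays the lowest, a difference of -1.39 ± 0.13 (adjusted p = 0.000208). Col1a2, the second chain of type I collagen, went from 0.08 and 0.32 to -0.82 and -1.09, again with the 2 +Dox arrays lowest of all 12, and fell by 1.15 ± 0.16 (adjusted p = 0.0023). Its partner Col1a1 stood at -0.12 and 0.05 without and at -0.18 and -0.49 with Dox, a difference of -0.30 ± 0.20 (adjusted p = 0.456) that did not pass. The dim probe set of Col1a2, with a median between 2 and 4 and not used for the gene, gave -0.07.

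The windows of 250 bases before the annotated starts of Col3a1 and Col1a2 are shown because these fibrillar chains fell together at day 7 while their upstream windows differ in base composition. They were taken from RefSeq's promoter table (GRCm38.p6, both on the + strand), at chr1:45311288-45311537 for Col3a1 and chr6:4505368-4505617 for Col1a2. Capitals mark the letters of the TATA box (TATAAA), the CCAAT box (CCAAT) and the GC box (GGGCGG), each searched on both strands. They were searched at any position in the window, and a match does not show a working box.
Col3a1: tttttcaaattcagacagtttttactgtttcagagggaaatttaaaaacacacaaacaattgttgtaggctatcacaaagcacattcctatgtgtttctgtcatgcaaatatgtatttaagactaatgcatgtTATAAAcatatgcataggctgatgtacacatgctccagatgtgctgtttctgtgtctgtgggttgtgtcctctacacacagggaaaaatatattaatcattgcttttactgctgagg
Col1a2: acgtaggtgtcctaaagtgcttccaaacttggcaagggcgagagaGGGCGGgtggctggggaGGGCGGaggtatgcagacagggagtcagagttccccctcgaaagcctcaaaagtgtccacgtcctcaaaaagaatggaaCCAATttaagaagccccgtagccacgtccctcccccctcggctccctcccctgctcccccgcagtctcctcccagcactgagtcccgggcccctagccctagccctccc
The Col3a1 window has 35.2% G and C, against a median of 52.4% over all 32817 promoter windows, and holds TATAAA with its first base 117 bases before the start. The Col1a2 window has 62.0% G and C and holds CCAAT 109 bases before the start and GGGCGG at 205 and 188 bases before it. A window was found for 33 of the 42 collagen genes, 36 windows in all. TATAAA was in 13.9% of these and 12.4% of all windows, CCAAT in 36.1% and 33.8%, and GGGCGG in 58.3% and 32.7%. The letters ACATTGT, the core of the site that Dmrt proteins are known to bind, were in 0 of the 36 collagen windows and in 2.56% of all windows, which says only that these letters are not in these windows.

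Outside the fibrillar class, 3 genes fell and 1 rose at day 7. Col9a1, a chain of the fibril-associated type IX collagen, stood at 0.43 and 0.51 without and -1.31 and -1.46 with Dox, well separated, a difference of -1.85 ± 0.35 (adjusted p = 0.0121). Its dimmer probe set gave 0.04, so the fall rests on 1 of its 2 probe sets. Col25a1, a transmembrane collagen of neurons also known as the precursor of the collagenous component of amyloid plaques, stood at 0.26 and 0.45 without and at -0.38 and -0.42 with Dox and fell by 0.76 ± 0.11 (adjusted p = 0.00224).

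Col4a6, a type IV chain, stood at 0.87 and 0.60 without and 0.02 and -0.02 with Dox, a difference of -0.74 ± 0.15 (adjusted p = 0.0167). Col18a1, the core protein of a basement membrane heparan sulfate proteoglycan and the source of endostatin, was the member that rose, from 0.05 and -0.04 to 0.57 and 0.53, a difference of 0.55 ± 0.13 (adjusted p = 0.04). The calls of Col3a1, Col2a1, Col1a2 and Col25a1 held whichever of the 4 arrays was left out. Those of Col18a1 (0.50 to 0.59, adjusted p up to 0.21) and Col9a1 (-1.93 to -1.78, up to 0.0859) were lost without any of the 4, and that of Col4a6 (-0.87 to -0.60, up to 0.118) without -Dox replicate 1 or either +Dox array.

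**Figure D2:**
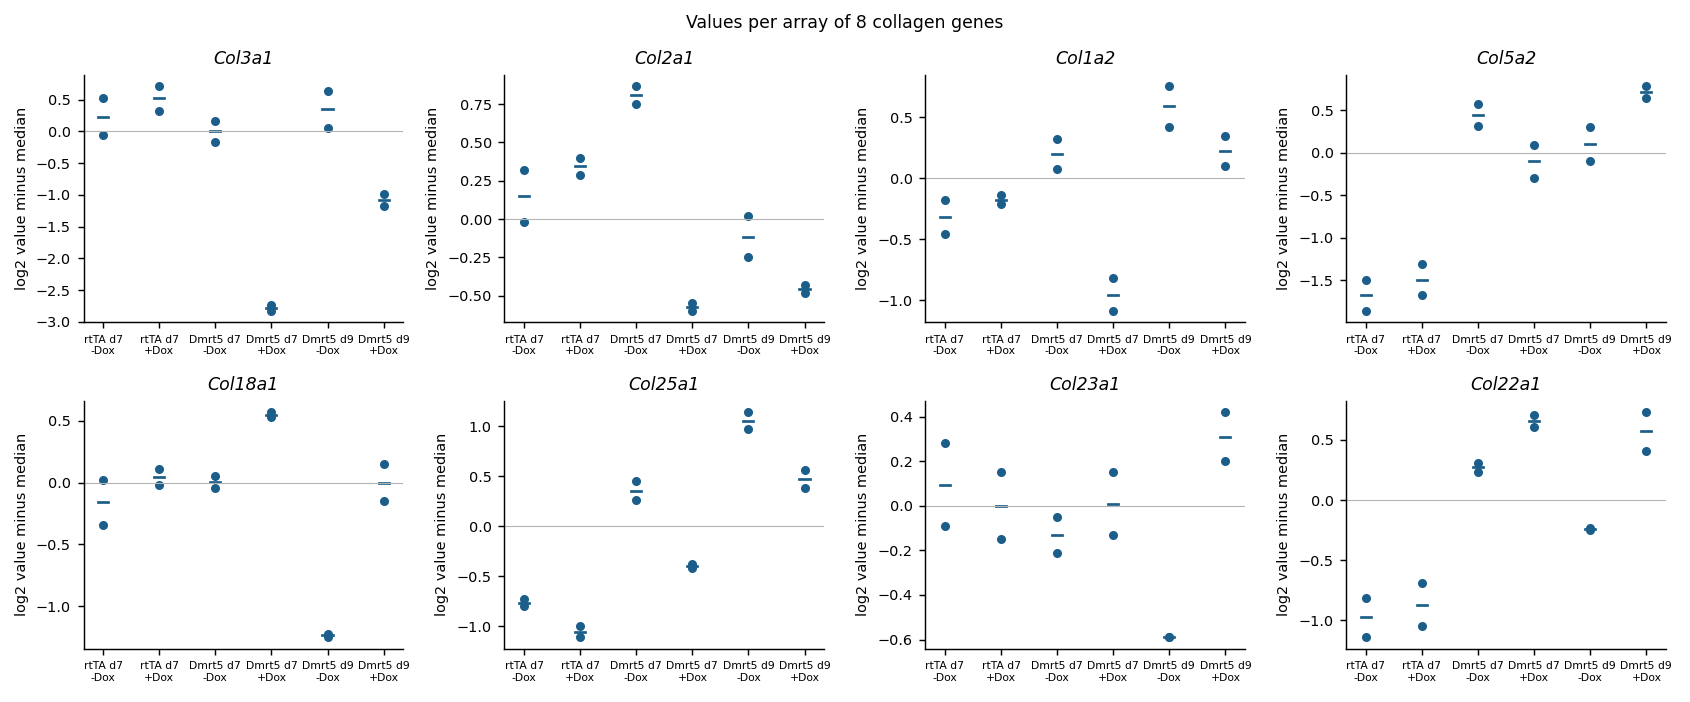
Centred log2 values per array (points, 2 replicates per group) and group means (short bars) of 8 collagen genes; each panel has its own vertical scale. Col3a1, Col2a1 and Col1a2 have their lowest points on the rtTA-Dmrt5 day 7 +Dox arrays, while Col18a1 and Col23a1 have theirs on the day 9 -Dox arrays.

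In the parental rtTA line at day 7, where Dox has no Dmrt5 transgene to act on, 0 of the 42 collagen genes passed the test (limma), and 0.0% of all genes did. At an unadjusted p of 0.05, 6 of the 42 and 929 of all 18193 genes passed, and the differences lay between -0.38 (Col8a1) and 0.56 (Col16a1). Col3a1 stood at -0.06 and 0.53 without Dox and 0.72 and 0.33 with it, Col2a1 at -0.02 and 0.32 without and 0.29 and 0.40 with Dox, and Col1a2 at -0.46 and -0.18 without and -0.14 and -0.21 with Dox. In each of these 3 genes the mean was higher on the +Dox arrays, and the replicates of both groups overlapped.

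The Dox response at day 7 was then compared between the lines by an interaction term, which asks whether the rtTA-Dmrt5 response differs from the parental response. It did for 3 collagen genes, all of them fibrillar and all lower in rtTA-Dmrt5, which is 7.14% of the 42 against 1.95% of all genes. Col3a1 differed by -3.08 ± 0.34 (adjusted p = 0.00139), Col2a1 by -1.58 ± 0.18 (adjusted p = 0.00191) and Col1a2 by -1.30 ± 0.23 (adjusted p = 0.0164). The higher direction held 0 collagen genes and 0.857% of all genes, and 2.81% of all genes passed in either direction. Col9a1 differed by -1.94 ± 0.49 (adjusted p = 0.0753) and did not pass, its 2 parental -Dox arrays being -0.78 and 0.61. The other 3 genes called in rtTA-Dmrt5 at day 7 gave differences of -0.47 for Col25a1, -0.43 for Col4a6 and 0.34 for Col18a1, so for them a difference between the lines was not shown. The calls of Col3a1 and Col2a1 held without any 1 of the 8 arrays. That of Col1a2 (-1.44 to -1.16, adjusted p up to 0.077) was lost without rtTA -Dox or +Dox replicate 1 or rtTA-Dmrt5 -Dox or +Dox replicate 2.

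At day 9, after 4 days of Dox, many more collagen genes passed, and most of them were higher on the +Dox arrays. Of the 42, 12 rose, or 28.6%, where 16.9% of all genes rose, and 6 fell, or 14.3%, where 11.3% of all genes fell (limma; 28.2% of all genes in either direction). The 24 others had differences between -0.36 and 0.64, and the median difference was 0.01 both over the collagen genes and over all genes. The genes that rose were 4 fibrillar chains, 2 type IV chains, 4 fibril-associated chains, Col18a1 and the transmembrane Col23a1. Those that fell were 1 fibrillar chain, 1 type IV chain, 2 fibril-associated chains, the anchoring fibril chain Col7a1 and the transmembrane Col25a1. On the same +Dox arrays 9 of 10 endoderm, 4 of 7 surface epithelium and 4 of 11 mesenchyme markers were higher. So were 4 of 5 embryonic stem cell markers, while 3 of 6 neuron markers and the added hybridisation controls (-1.01 and -0.84) were lower. The part of these in the collagen results was not tested.

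Col18a1 rose most. It stood at -1.25 and -1.22 on the day 9 -Dox arrays, the lowest of all 12, and at 0.15 and -0.15 on the +Dox arrays, a difference of 1.24 ± 0.13, or 2.36-fold higher (adjusted p = 0.000226). The day 7 -Dox arrays had stood at -0.34 and 0.02 in rtTA and 0.05 and -0.04 in rtTA-Dmrt5 cells, so the day 9 +Dox arrays lay near them. Col23a1, a transmembrane collagen, was also lowest on the day 9 -Dox arrays, at -0.59 and -0.59 without and 0.42 and 0.20 with Dox, a difference of 0.90 ± 0.16 (adjusted p = 0.00277).

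Among fibrillar chains, Col27a1 went from -0.37 and -0.31 to 0.58 and 0.35, a difference of 0.80 ± 0.16 (adjusted p = 0.00615). Col5a1 and Col5a2, chains of type V collagen, which nucleates fibrils, rose by 0.56 ± 0.11 and 0.62 ± 0.20 (adjusted p = 0.00422 and 0.0445), and Col11a1, the type XI chain with the same role in cartilage, by 0.49 ± 0.15 (adjusted p = 0.0374). Col5a1 stood at -0.31 and -0.43 without and at 0.25 and 0.14 with Dox, Col5a2 at -0.09 and 0.30 and then 0.79 and 0.65, and Col11a1 at -0.24 and 0.22 and then 0.55 and 0.41. The groups did not overlap for any of the 3, but for Col5a2 and Col11a1 the gap between groups was no wider than the gap between the -Dox replicates. Of Col5a1, 1 of the 3 probe sets gave -0.14 against 1.05 and 0.78 for the others.

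Of the major fibril chains, Col3a1 fell again, from 0.06 and 0.64 to -0.99 and -1.17, a difference of -1.44 ± 0.24 (adjusted p = 0.00205). Its neighbour in RefSeq's gene order on chromosome 1, Col5a2, was among those that rose, and over the 12 arrays the difference Col3a1 minus Col5a2 spanned 5.23 log2 units. Col1a1 gave 0.50 ± 0.20 (adjusted p = 0.0914), Col1a2 -0.36 ± 0.16 (adjusted p = 0.125) and Col2a1 -0.34 ± 0.13 (adjusted p = 0.0776), and none of these passed.

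The fibril-associated chains split. Col9a2, Col9a3, Col22a1 and Col14a1 rose by 1.05 ± 0.27, 1.09 ± 0.20, 0.81 ± 0.15 and 0.40 ± 0.09, with adjusted p-values of 0.0178, 0.00312, 0.00407 and 0.0121. Col9a1 fell by 1.93 ± 0.35 (adjusted p = 0.00318) and Col20a1, for which little function is described, by 0.61 ± 0.13 (adjusted p = 0.00823). Col22a1, known from tissue junctions such as that of muscle and tendon, stood at -0.23 and -0.25 without and 0.73 and 0.41 with Dox, and Col20a1 at 0.72 and 0.74 without and 0.08 and 0.15 with Dox; neither overlapped. Col14a1 and Col9a3 each have a probe set of the other sign, at -0.10 and -0.46, beside 0.73 and 0.56 for Col14a1 and 1.38 and 0.80 for Col9a3.

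Col25a1 fell again, from 1.14 and 0.97 to 0.38 and 0.56, a difference of -0.59 ± 0.11 (adjusted p = 0.00315). Its 2 probe sets differed, with -1.08 and -0.09. Col4a6 fell by 0.54 ± 0.15 (adjusted p = 0.0223) and Col7a1, the chain of anchoring fibrils below epithelia, by 0.41 ± 0.09 (adjusted p = 0.0104), from 0.00 and 0.13 to -0.28 and -0.40. Of the 18 calls, 12 held whichever array was left out. Col9a2 (0.95 to 1.15, adjusted p up to 0.0864) lost its call without any of the 4 arrays, Col5a2 (0.42 to 0.81, up to 0.256) and Col11a1 (0.26 to 0.72, up to 0.256) without -Dox replicate 1 or either +Dox array, Col4a6 (-0.68 to -0.41, up to 0.138) without either -Dox array or +Dox replicate 1, Col14a1 (0.32 to 0.48, up to 0.0941) without -Dox replicate 1 and Col7a1 (-0.48 to -0.34, up to 0.0709) without -Dox replicate 2.

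**Figure D3:**
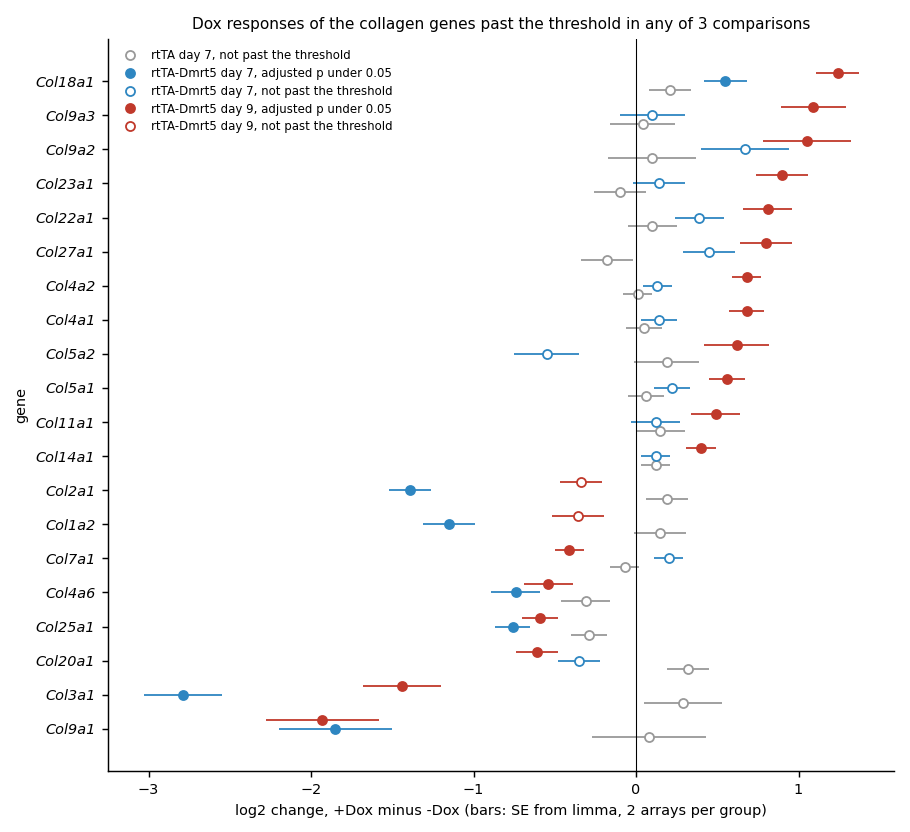
Log2 change, +Dox minus -Dox, with its SE from limma (2 arrays per group), of every collagen gene past adjusted p 0.05 in any of 3 comparisons; filled points passed and open points did not. Col3a1, Col9a1, Col25a1 and Col4a6 are below 0 and filled at both days, Col18a1 is above 0 and filled at both, and no grey point of the rtTA line is filled.

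The rtTA-Dmrt5 responses at days 7 and 9 come from separate arrays, and their difference was tested by an interaction term. It passed for 2 collagen genes. Col2a1, which fell at day 7 and gave -0.34 at day 9, had a response that was higher at day 9 by 1.05 ± 0.18 (adjusted p = 0.0221), and Col7a1 one that was lower by 0.61 ± 0.13 (adjusted p = 0.0499). Each is 2.38% of the 42, against 1.42% of all genes in the higher direction and 0.995% in the lower, or 2.41% in either. Col3a1 gave 1.36 ± 0.34 (adjusted p = 0.0728), Col5a2 1.17 ± 0.28 (adjusted p = 0.068) and Col4a2 0.55 ± 0.12 (adjusted p = 0.0566), and none passed, so the larger number of calls at day 9 does not in itself show a different response for the other genes. Both calls depended on single arrays: Col7a1 (-0.68 to -0.54, adjusted p up to 0.18) lost its call without any 1 of the 8 arrays and Col2a1 (0.92 to 1.18, up to 0.0928) without 6 of them, all but day 9 -Dox replicate 1 and day 9 +Dox replicate 2.

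Between day 7 and day 9 without Dox, 2 collagen genes rose and 5 fell in rtTA-Dmrt5 cells, or 4.76% and 11.9% against 7.85% and 7.09% of all genes and 14.9% in either direction. Col18a1 fell most, from 0.05 and -0.04 to -1.25 and -1.22, a difference of -1.24 ± 0.13 (adjusted p = 0.000441). Col2a1 went from 0.75 and 0.87 to 0.02 and -0.25 and fell by 0.93 ± 0.13 (adjusted p = 0.00144). Col25a1 went the other way, from 0.26 and 0.45 to 1.14 and 0.97, and rose by 0.70 ± 0.11 (adjusted p = 0.00238), on 1 of its 2 probe sets (1.61 against -0.22).

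The other genes that passed were the type IV chains Col4a5, Col4a1 and Col4a2, with -0.61 ± 0.16, -0.44 ± 0.11 and -0.37 ± 0.09, and Col20a1, with 0.59 ± 0.13. Col4a1 (adjusted p up to 0.131) and Col4a2 (up to 0.103) lost their calls without any of the 4 arrays, Col4a5 (up to 0.168) without either day 7 array or day 9 replicate 1, and Col20a1 (up to 0.129) without day 7 replicate 1 or either day 9 array. Col18a1, Col2a1 and Col25a1 kept theirs in every case. This comparison shares its day 9 -Dox arrays with the day 9 Dox response and its day 7 -Dox arrays with the day 7 response and with the comparison of the lines.

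Chains that assemble with each other were set side by side. Col4a1 and Col4a2, which form the most widespread type IV trimer and whose annotated starts in GRCm38.p6 lie 21 bases apart on opposite strands of chromosome 8, moved as a pair on every array. Col4a1 stood at -1.60 and -1.81 on the rtTA arrays without Dox and at -1.54 and -1.77 on those with it. Col4a2 stood at -1.19 and -1.31 and at -1.20 and -1.28 on the same arrays. On the rtTA-Dmrt5 arrays Col4a1 lay between -0.25 and 0.52 and Col4a2 between -0.21 and 0.55. The difference between both chains spanned 0.57 log2 units over the 12 arrays, and was lowest on the 4 rtTA arrays. At day 9 Col4a1 went from -0.21 and -0.25 to 0.52 and 0.38 and Col4a2 from -0.18 and -0.21 to 0.55 and 0.42, and they rose by 0.68 ± 0.11 (adjusted p = 0.00167) and 0.68 ± 0.09 (adjusted p = 0.000564).

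Col4a5 and Col4a6, which form another type IV trimer and lie head to head on the X chromosome with annotated starts 1343 bases apart, moved less closely, with a difference that spanned 0.94 log2 units. Col4a6 fell at both days, whereas Col4a5 gave -0.57 ± 0.16 (adjusted p = 0.0591) at day 7 and 0.00 ± 0.16 at day 9, and the difference between the responses of both genes was not tested. At day 9 Col4a5 stood at -0.21 and 0.06 without and -0.21 and 0.06 with Dox, Col4a6 at 0.36 and 0.24 without and -0.37 and -0.10 with Dox. Col4a3 and Col4a4, both with medians below 4, passed in no comparison. The upstream windows of the head-to-head pair are shown because the 2 genes share 1 intergenic stretch. They are chrX:141475169-141475418 (+ strand) for Col4a5 and chrX:141474077-141474326 (- strand) for Col4a6, in GRCm38.p6 from RefSeq, with CCAAT and GGGCGG or its reverse complement CCGCCC in capitals.
Col4a5: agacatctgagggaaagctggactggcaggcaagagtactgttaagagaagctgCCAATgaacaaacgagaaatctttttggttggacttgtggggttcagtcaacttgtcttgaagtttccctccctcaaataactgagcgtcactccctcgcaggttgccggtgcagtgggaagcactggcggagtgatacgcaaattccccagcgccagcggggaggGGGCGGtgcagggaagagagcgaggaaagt
Col4a6: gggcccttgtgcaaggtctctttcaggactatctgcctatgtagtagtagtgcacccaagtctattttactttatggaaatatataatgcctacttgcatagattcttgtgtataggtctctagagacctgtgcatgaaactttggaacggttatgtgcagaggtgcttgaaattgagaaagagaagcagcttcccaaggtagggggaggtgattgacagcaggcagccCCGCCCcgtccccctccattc
The Col4a5 window holds CCAAT 196 bases and GGGCGG 30 bases before its start. The Col4a6 window holds the reverse complement CCGCCC 21 bases before its start and no CCAAT.

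The 3 chains of type IX collagen, a heterotrimer of 1 chain of each gene, went in opposite directions. In rtTA-Dmrt5 cells at day 9 Col9a1 stood at 0.89 and 0.47 without and -1.39 and -1.11 with Dox, Col9a2 at -0.04 and -0.23 without and 0.96 and 0.87 with Dox, and Col9a3 at -0.03 and 0.00 without and 1.36 and 0.79 with Dox. Col9a1 was thus low and its partners high on the same arrays. At day 7 Col9a1 fell, while Col9a2 gave 0.67 ± 0.27 (adjusted p = 0.196) and Col9a3 0.10 ± 0.20 (adjusted p = 0.847) and neither passed. Over the 12 arrays the difference between Col9a1 and Col9a2 spanned 3.47 log2 units and that between Col9a1 and Col9a3 3.68, against 1.86 between Col9a2 and Col9a3. RefSeq lists 2 start sites of Col9a1, and their upstream windows are shown with that of Col9a2 because these partners moved apart. The windows are chr1:24177360-24177609 (upstream start) and chr1:24194953-24195202 (downstream start) for Col9a1 and chr4:121039316-121039565 for Col9a2, all + strand in GRCm38.p6, with CCAAT and GGGCGG or its reverse complement CCGCCC in capitals.
Col9a1 upstream start: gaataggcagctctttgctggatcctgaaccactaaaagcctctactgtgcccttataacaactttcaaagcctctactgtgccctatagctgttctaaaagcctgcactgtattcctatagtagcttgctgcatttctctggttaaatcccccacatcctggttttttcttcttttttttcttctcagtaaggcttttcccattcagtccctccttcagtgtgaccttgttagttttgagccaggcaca
Col9a1 downstream start: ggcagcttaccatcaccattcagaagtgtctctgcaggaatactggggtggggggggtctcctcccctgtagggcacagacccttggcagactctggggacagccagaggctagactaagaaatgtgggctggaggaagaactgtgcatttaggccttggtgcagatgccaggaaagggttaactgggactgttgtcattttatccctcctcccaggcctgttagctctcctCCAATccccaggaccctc
Col9a2: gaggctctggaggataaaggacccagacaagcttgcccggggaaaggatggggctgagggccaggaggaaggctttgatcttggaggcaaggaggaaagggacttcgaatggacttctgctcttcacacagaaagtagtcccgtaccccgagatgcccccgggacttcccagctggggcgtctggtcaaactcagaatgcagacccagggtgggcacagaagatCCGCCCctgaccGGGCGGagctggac
The upstream Col9a1 window holds none of the motifs searched, the downstream window holds CCAAT 18 bases before the start, and the Col9a2 window holds GGGCGG 14 bases and CCGCCC 26 bases before it. Which start the arrays measured was not known.

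**Figure D4:**
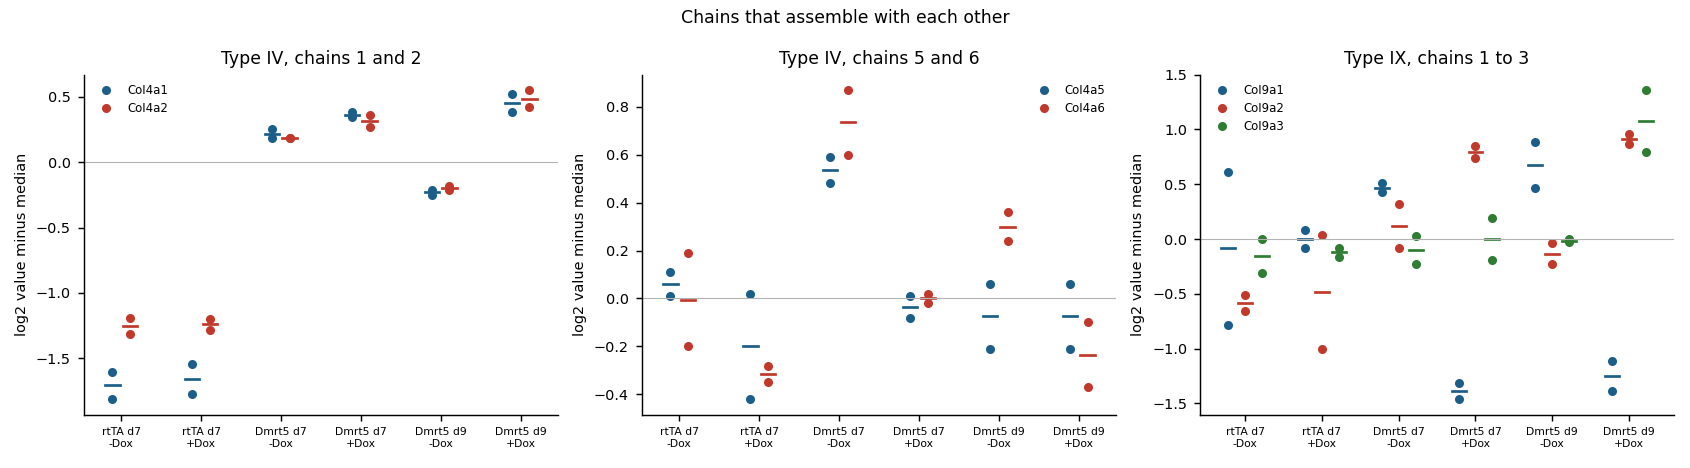
Centred log2 values per array (points, 2 replicates in each of 6 groups) and group means (short bars) of collagen chains that assemble with each other. Col4a1 and Col4a2 run together, Col4a6 stands above Col4a5 on both rtTA-Dmrt5 day 9 -Dox arrays and below it on both +Dox arrays, and on the rtTA-Dmrt5 +Dox arrays of both days Col9a1 lies between -1.46 and -1.11 while Col9a2 lies between 0.74 and 0.96.

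Without Dox the 2 lines differed. At day 7 without Dox, 12 of the 42 collagen genes, or 28.6%, were higher in rtTA-Dmrt5 than in rtTA cells, where 15.2% of all genes were higher, and 0 were lower (limma; 1 of the 42, Col6a3 with -0.34, was lower at an unadjusted p of 0.05), where 13.4% of all genes were lower and 28.6% differed in either direction. The median difference was 0.18 over the collagen genes and 0.02 over all genes. The 12 were 4 fibrillar chains, the 4 type IV chains with a median above 4, Col22a1, Col20a1, Col25a1 and Col26a1. These rtTA-Dmrt5 arrays are also the -Dox arrays of the day 7 Dox response, and the rtTA-Dmrt5 cells differ from the rtTA cells in being a derived line. Dmrta2 also differed here, at 1.91 and 1.85 on the rtTA-Dmrt5 -Dox arrays and -0.22 and 0.14 on the rtTA -Dox arrays. The labels give no direction for this difference, its reason was not tested, and the groups are named as labelled. Between the same arrays 7 of 10 endoderm markers were higher and 5 of 5 embryonic stem cell markers lower in rtTA-Dmrt5.

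Col5a2 differed most. It stood at -1.49 and -1.86 in rtTA cells and 0.32 and 0.58 in rtTA-Dmrt5 cells, a difference of 2.13 ± 0.20, or 4.37-fold higher (adjusted p = 7.19e-05). Col4a1 differed by 1.92 ± 0.11 (adjusted p = 4.22e-06) and Col4a2 by 1.43 ± 0.09 (adjusted p = 6.01e-06), and on the rtTA-Dmrt5 -Dox arrays they stood at 0.25 and 0.18 and at 0.18 and 0.18. The rtTA arrays labelled +Dox were low as well for all 3 genes, at -1.31 and -1.67 for Col5a2.

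Col22a1 went from -1.14 and -0.81 to 0.31 and 0.23, a difference of 1.24 ± 0.15 (adjusted p = 0.000365), and Col11a1 from -0.95 and -1.05 to 0.16 and -0.03, a difference of 1.06 ± 0.15 (adjusted p = 0.000799). Col26a1, a collagen known from testis and ovary, differed by 1.16 ± 0.24 (adjusted p = 0.006), with parental arrays at -1.38 and -0.85, and Col25a1 by 1.12 ± 0.11 (adjusted p = 7.64e-05). For both of these a second probe set showed little of it, -0.16 for Col26a1 and 0.10 for Col25a1. The remaining calls were Col4a6 (0.74 ± 0.15), Col20a1 (0.67 ± 0.13), Col2a1 (0.66 ± 0.13), Col1a2 (0.52 ± 0.16) and Col4a5 (0.47 ± 0.16), and Col1a2 and Col20a1 each have a probe set at -0.22. With the mean of all its probe sets Col1a2 gave 0.27 and did not pass (adjusted p = 0.134). On leaving out an array, the calls of Col4a5 (adjusted p up to 0.184, any of 4 arrays), Col1a2 (up to 0.22, rtTA replicate 1 or either rtTA-Dmrt5 array) and Col26a1 (up to 0.053, without rtTA -Dox replicate 1) were lost and the other 9 held.

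By class, the groups compare as follows in the Dox responses of rtTA-Dmrt5 cells. Fibrillar chains gave 3 of 11 lower and 0 higher at day 7 (median difference -0.02), and 4 higher and 1 lower at day 9 (median 0.19). Type IV chains gave 1 of 6 lower at day 7 (median -0.17), and 2 higher and 1 lower at day 9 (median 0.01). Fibril-associated chains gave 1 of 9 lower at day 7 (median -0.16), and 4 higher and 2 lower at day 9 (median -0.12). Over all genes 3.08% rose and 3.84% fell at day 7 and 16.9% rose and 11.3% fell at day 9, with a median of 0.01 at either day. Each of these 3 classes held calls in both directions at day 9.

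Other classes gave few calls. The 3 short-chain network chains, Col8a1, Col8a2 and Col10a1, passed in no comparison, with Dox differences in rtTA-Dmrt5 cells between -0.16 and 0.64. Of the 6 chains of beaded filaments and anchoring fibrils only Col7a1 passed. Col6a1, a chain of the type VI beaded filaments of connective tissue, stood at 0.40 and 0.48 without and 1.36 and 0.60 with Dox at day 9, a difference of 0.54 ± 0.22 (adjusted p = 0.0924), and its partners Col6a2 and Col6a3 gave -0.17 and 0.38. Col15a1, the other multiplexin, gave 0.55 ± 0.21 (adjusted p = 0.164) at day 7 and -0.17 at day 9. Col5a3, Col11a2, Col24a1, Col12a1, Col16a1, Col19a1, Col13a1 and Col17a1 also passed in none of the 7 comparisons.

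Genes that make, bind and break down collagen, or inhibit its breakdown, were read from the same fit. In it 3.08% of all genes rose and 3.84% fell at day 7, and 16.9% rose and 11.3% fell at day 9. Of 18 measured genes of chain assembly and modification, 3 rose and 1 fell at day 7, and 14 rose and 1 fell at day 9, with medians of 0.12 and 0.49. Between the lines without Dox 10 of the 18 were higher in rtTA-Dmrt5, where 15.2% of all genes were, with a median of 0.48. Serpinh1, the collagen chaperone Hsp47, stood at -0.21 and -0.09 on the day 9 -Dox arrays and 1.30 and 1.42 on the +Dox arrays, a difference of 1.51 ± 0.09 (adjusted p = 1.26e-05). P4ha2, a prolyl 4-hydroxylase subunit, rose by 1.33, Crtap, a part of the prolyl 3-hydroxylation complex, by 1.32, and Plod2, a lysyl hydroxylase, by 0.96. P3h3, a prolyl 3-hydroxylase family member, fell at both days, by 0.47 and 0.92. The 4 day 7 calls of this list became 0 or 1 on leaving out any of the 4 arrays, 0 for each but -Dox replicate 1.

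Of 14 measured basement membrane components other than collagens, 4 rose and 1 fell at day 7 and 9 rose and 1 fell at day 9, with medians of 0.17 and 0.99. Without Dox 7 of the 14 were higher in rtTA-Dmrt5 than in rtTA cells, where 15.2% of all genes were. From day 7 to day 9 without Dox 1 of the 14 rose and 5 fell, where 7.85% and 7.09% of all genes did, and these 6 calls became 1 or 2 on leaving out an array, 1 without day 9 replicate 2. Lamc1, a laminin chain, rose by 1.69 ± 0.13, Nid1 and Nid2, the nidogens that link laminin to type IV collagen, by 1.60 ± 0.16 and 1.32 ± 0.10, and Hspg2, perlecan, by 1.22 ± 0.10 at day 9. Lama2 fell at both days, by 0.60 and 0.73. The day 7 count was 0 to 3 on leaving out an array, 0 without -Dox replicate 2 or +Dox replicate 1. On the same day 9 arrays Col4a1 and Col4a2 rose by 0.68 each and Col18a1 by 1.24.

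Of 10 measured genes of processing and crosslinking, Pcolce2, an enhancer of procollagen cleavage, rose and Loxl1, a lysyl oxidase family member, fell at day 7, with Pcolce2 at 0.78 ± 0.18. The Loxl1 difference was -1.36 ± 0.17 (adjusted p = 0.00139), with an interaction of -1.49 ± 0.25 (adjusted p = 0.0131) between lines, and 1 of the 2 calls was left on leaving out any of the 4 arrays. At day 9, 3 of the 10 rose, which became 1 without +Dox replicate 1. Of 7 collagen receptors only Itgb1 passed in the Dox responses, with 0.64 ± 0.12 (adjusted p = 0.00351) at day 9. The breakdown list of 10 genes holds proteases and their Timp inhibitors, so its counts give no direction for breakdown. Timp3, an inhibitor held in the matrix, rose at day 7, by 1.02 ± 0.14. At day 9, 5 of the 10 rose, among them the inhibitors Timp3 and Timp1 and the protease Mmp2. Of 6 fibril-binding proteoglycans Prelp rose at both days, by 1.02 ± 0.16 and 2.18 ± 0.16, and Fmod at day 9, by 1.36 ± 0.17.

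**Figure D5:**
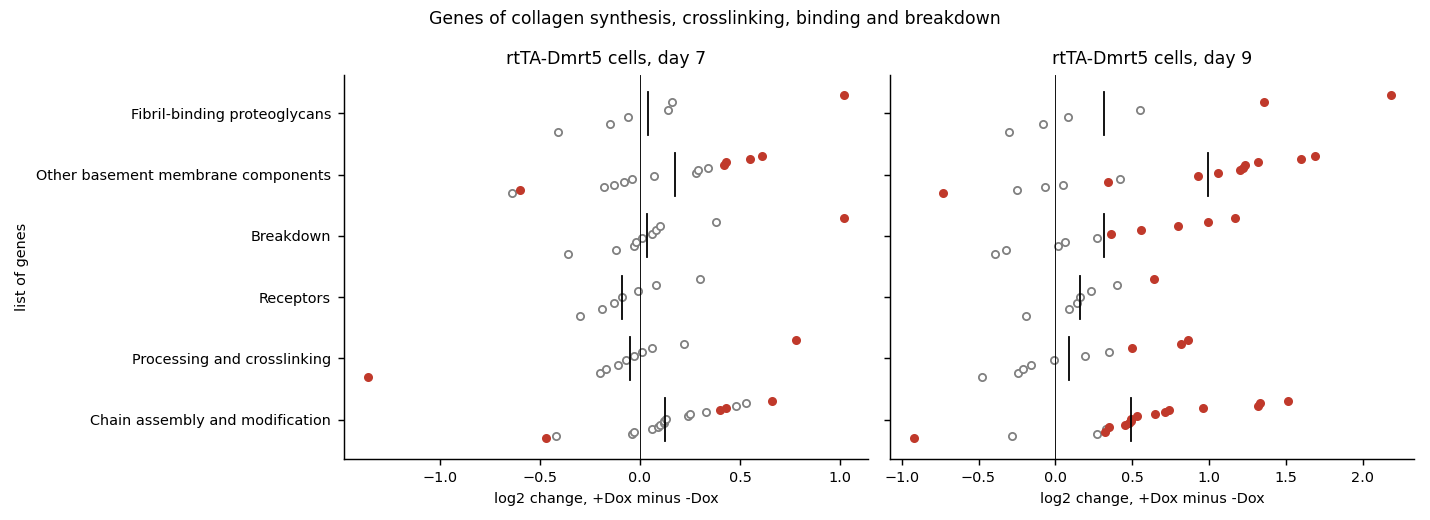
Log2 change, +Dox minus -Dox, of the measured genes of 6 lists around collagen (points; red, adjusted p under 0.05) in rtTA-Dmrt5 cells at day 7 and day 9; black bars are list medians and the 2 panels have different horizontal scales. At day 9 the medians of chain assembly and of other basement membrane components are at 0.49 and 0.99, and Loxl1 is the point at -1.36 on day 7.

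Markers of other cell types that make collagen were read beside these results and against the same shares of all genes (3.08% higher and 3.84% lower at day 7, 16.9% and 11.3% at day 9, 15.2% and 13.4% between lines). Of 10 markers of parietal and visceral endoderm, which makes a thick basement membrane, 7 were higher and 0 lower in rtTA-Dmrt5 than in rtTA cells without Dox, among them Sox17 (3.76), Thbd (2.49) and Gata4 (2.33). Their mean lay between -2.02 and -1.39 on the 4 rtTA arrays and at 0.12 and 0.01 on the rtTA-Dmrt5 day 7 -Dox arrays. Means of other basement membrane components (-0.62 to -0.60) and of surface epithelium markers (-0.74 to -0.40) were also below 0 on all 4 rtTA arrays. The surface epithelium list was split, however. Without Dox 3 of its 7 markers were higher and 2 lower in rtTA-Dmrt5 than in rtTA cells, with a median difference of 0.04. On the rtTA -Dox arrays Krt8, Krt18 and Krt19 averaged -1.29, -1.69 and -1.59. Krt5, Krt14, Epcam and Cdh1 averaged 0.20, 0.01, 0.07 and 0.13 there. At day 9, 9 of the 10 endoderm markers rose, with a mean of -0.09 on both -Dox arrays and of 1.11 and 0.85 on the +Dox arrays. At day 7 only Apoa1 rose, with means of 0.51 and 0.61 on the +Dox arrays. Their part in the collagen results was not tested, and whether any of these markers is absent cannot be read from centred values.

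Of 11 mesenchyme and meninges markers, 1 rose and 1 fell at day 7 and 4 rose at day 9, with means of -0.34 and -0.44 on the day 9 -Dox arrays and 0.14 and 0.02 on the +Dox arrays. The day 7 pair became 0 or 1 on leaving out an array, 0 without -Dox replicate 1 or either +Dox array. Of 6 neuron markers 5 fell at day 7 and 3 at day 9, with means of -0.94 and -1.10 on the day 7 +Dox arrays against -0.12 and -0.15 without Dox. Of 7 neural crest markers 2 fell at day 7, Pax3 and Tfap2b (Pax3 by 1.74). The other 5 did not pass, and differences over the list ran from -1.74 to 0.56. At day 9, 2 of the 7 rose and 3 fell. Of 6 measured notochord and cartilage markers 0 passed at either day (limma; 2 and 3 at an unadjusted p of 0.05), with Dox differences between -0.43 and 0.46, beside the falls of Col2a1 and Col9a1, both known from cartilage, at day 7.

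Of 7 surface epithelium markers 3 rose at day 7 and 4 at day 9; the 3 at day 7 became 0 on leaving out any array. Of 6 endothelial markers Tek rose at both days. Of 6 markers of neural progenitors, the cell type of the study's title, 1 rose and 3 fell at day 7 and 1 rose and 2 fell at day 9. Their mean was 0.11 and 0.06 on the day 7 -Dox arrays and -0.32 and -0.31 on the +Dox arrays, and the 4 day 7 calls became 2 on leaving out any array. The 5 markers of undifferentiated embryonic stem cells were all lower in rtTA-Dmrt5 than in rtTA cells without Dox, with means of -1.07 and -1.13 against 0.92 and 0.88. The part of these marker shifts in the collagen results was not tested.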

How the data were processed

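Total RNA was amplified, biotin-labelled and hybridised to 12 arrays, per the labels' protocols. The authors' deposited values were made by RMA, per the submitters' processing notes, and are log2 values; the files show that each probe set's median over the 12 arrays is 0 (within 5e-07), a centring for which no label or header gives the step. The base of the logarithm was taken as 2 because RMA gives that scale. The spacing of single-precision numbers gave the range of each probe set's median before centring, and probe sets whose range could not be read were put in the lowest class. A gene's value is the mean of those probe sets with that symbol alone that lie in the gene's highest range (34945 probe sets had 1 symbol in GEO's platform annotation, 932 several, 9160 none). limma 3.58.1 in R 4.3.3 fitted group means over all 12 arrays (6 residual degrees of freedom), with eBayes and Benjamini-Hochberg adjustment over 18193 genes and a threshold of 0.05, and 7 contrasts; the fit was tested on simulated data. With 2 arrays per group, the number of arrays limits the precision. Every collagen gene past the threshold was named, with its partner chains; the members and all lists were chosen with earlier results of these data known. In the listed pathways Adamts14, Adamts2, Fkbp10, Itga11 and Loxl2, among others, were not analysed here. Same-numbered arrays deviated together with correlations from -0.18 to 0.19 between groups. These show no clear pairing by replicate number but cannot exclude a weak one, and the main fit used no replicate block. Alternatives were other probe set summaries, a replicate block, fits on the compared arrays only, a level filter, array centring and leaving out each array.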

Additional observations from a re-analysis of the deposited data

Results flagged for a closer look

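The Dox response of 3 fibrillar collagen genes at day 7 differed between the lines by limma's interaction term, at -3.08 for Col3a1, -1.58 for Col2a1 and -1.30 for Col1a2 on the log2 scale. The rtTA-Dmrt5 responses behind these were -2.79, -1.39 and -1.15, and the rtTA responses 0.29, 0.19 and 0.15.

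The rtTA-Dmrt5 response differed between day 9 and day 7 for Col2a1, by 1.05, and for Col7a1, by -0.61. Col2a1 gave -1.39 at day 7 and -0.34 at day 9, and Col7a1 gave 0.20 and -0.41. With 2 arrays in each group, no search for single outlying arrays was made.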

How the results depend on the processing

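The counts of collagen genes past the threshold were 7 in the day 7 Dox response, 18 at day 9, 0 in the rtTA line, 3 for the difference between lines, 2 for the difference between days, 7 between days without Dox and 12 between lines without Dox. Testing each probe set alone gave 29 at day 9. The difference between days gave 1 with the mean of all probe sets, with each probe set alone, with a replicate block and on the compared arrays only, 0 with the replicate block within line and day, and 4 over genes with a level of at least 4. The comparison of days without Dox gave 11 on the compared arrays only. The cause of these shifts was not tested. All other counts under these settings and under array median centring lay within 1.5 times the counts above.

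Leaving out each array in turn gave 4 to 5 genes at day 7, 13 to 16 at day 9, 2 to 4 for the difference between lines, 0 to 4 for the difference between days, 3 to 4 between days without Dox and 9 to 12 between lines without Dox, and 0 in the rtTA line. Of 49 called differences none reversed on leaving out an array or under the gene-level settings. Among probe sets taken alone, 9 had the opposite sign: Col9a1 at day 7 (0.04), Col14a1 (-0.10), Col5a1 (-0.14) and Col9a3 (-0.46) at day 9, Col1a2 in the difference between lines (0.22), Col25a1 between days without Dox (-0.22), and Col1a2 (-0.22), Col20a1 (-0.22) and Col26a1 (-0.16) between lines without Dox.

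The replicate numbers did not pair the arrays. With the number as a block the counts were 6 at day 7, 16 at day 9, 0 in the rtTA line, 3 and 1 for the differences between lines and days, 8 between days and 11 between lines. The block ended the calls of Col18a1 at day 7 (adjusted p = 0.0596), Col11a1 (0.0501) and Col5a2 (0.0513) at day 9, Col7a1 in the difference between days (0.0658) and Col4a5 between lines (0.0615). With the block within line and day, Col4a5 kept its call between lines, while the other genes just named lost theirs again. Further losses there were Col1a2 (0.0824) in the difference between lines and Col2a1 (0.0562) in the difference between days. Between lines without Dox, Col1a2 (0.0925) lost its call as well.

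On the compared arrays only, Col11a1 (adjusted p = 0.102), Col14a1 (0.0712) and Col7a1 (0.0679) lost their calls at day 9, Col7a1 (0.0878) in the difference between days and Col1a2 (0.0511) between lines without Dox. The mean of all probe sets ended the calls of Col7a1 in the difference between days (0.0569) and Col1a2 between lines (0.27, adjusted p = 0.134), and array median centring that of Col4a5 between lines (0.0529). Weak array signal limits the 12 collagen genes with a median below 4 or not readable.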
